A study of Rattus norvegicus with 9 samples.

Results

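Photoreceptor RNA was measured in sorted retinal microglia through 33 named genes of rod and cone phototransduction, outer segment structure and photoreceptor gene control. They were picked by gene symbol, and 32 of the 33 had a row among the 28343 genes of the count table. Prph2 had no row under that symbol, so it enters only the promoter search. Of the 32, 10 are used mainly by rods, 7 mainly by cones and 15 by both, by textbook knowledge fixed as lists. The libraries came from Dark Agouti rats, an inbred strain. Control rats received citrate buffer and diabetic rats received streptozotocin (spelled steptozotocin in the labels), a toxin of the insulin-producing cells, at 55 mg/kg and at 8 to 10 weeks of age after 12 hours of fasting. Diabetic rats whose blood glucose exceeded 30 mmol/l received 2 units of insulin (Protaphane), and retinas of both groups were collected 4 weeks after diabetes was induced. After papain digestion of the whole retina, cells labelled with an antibody to CD11b were sorted, and their RNA was preamplified with a SmartSeq v4 kit. The 5 control libraries carry the numbers 1, 3, 4, 5 and 6 and the 4 diabetic ones 1, 2, 4 and 5, as many as the rats the protocol gives. Where a sample is not a separate animal, p-values measure only the spread between these samples. CD11b also marks other myeloid cells, so the sort does not separate microglia from blood and border macrophages.

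Rods and cones are the light-sensing neurons of the retina. Light activates an opsin, which activates the G protein transducin, which switches on phosphodiesterase 6, and the fall in cyclic GMP closes the cyclic nucleotide-gated channels of the outer segment. Rods and cones use separate genes for most of these steps. Rods far outnumber cones in the rat retina, and microglia are not known to run this pathway. Retinal microglia take up photoreceptor debris, and RNA of lysed photoreceptors can also enter a sorted droplet. These libraries hold RNA of whole sorted samples and cannot separate RNA inside microglia from RNA carried beside them. In such bulk samples, fewer cells of a type and less RNA per cell cannot be told apart.

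Library totals ran from 6228756 counts in diabetic 4 to 11332823 in control 3, and microglial markers were detected for 15 of 16 genes, with Siglech at 0 in all 9 libraries. The microglial list summed to between 37503 and 43239 CPM (counts scaled to the library total with TMM factors), against 245 to 1449 CPM for the 32 photoreceptor genes together. Diabetic 2 stood apart with the highest photoreceptor sum and control 3 with the lowest, so the group differences of the summed levels, the cone share and the gene lists are also given without them. Leaving out both was chosen after seeing the data; as they are the highest diabetic and the lowest control library by this sum, it can only lower the difference in that sum. Counts here are reads, since no molecular identifiers are named, so the intervals below cover counting error only.

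The regulatory sequences upstream of these genes are shown as background on photoreceptor gene control. Whether they relate to the levels in these libraries was not tested. Of the 33 genes, 26 had an entry in the RefSeq promoter table of the rat build GRCr8. Both strands of the 250 bases before each gene start were searched for TAATCC, the letters bound by the homeodomain of Crx, and for TGCTGA, the core of the element bound by Nrl. The letters TAATCC were found in 11 of the 26 (42.3%), against 6.34% of all 33469 promoter entries. They split into 3 of 8 rod, 1 of 4 cone and 7 of 14 shared genes, with Prph2 among the 7. The letters TGCTGA were found in 3 of 26 (11.5%), against 15.1% of all entries, and all 3 were rod genes (Sag, Cngb1 and Pde6b). Below are the 250 upstream bases of a rod gene, a shared gene and a cone gene, with matches to either motif on either strand in capitals and the 5′ end first. Cngb1 (chr19:9732396-9732645, plus strand) held TAATCC at 62 and 29 bases and TGCTGA at 142 bases before its start. Rbp3 (chr16:9273537-9273786, plus strand) held TAATCC on the reverse strand, read as GGATTA, at 103 bases. Opn1sw (chr4:58945826-58946075, minus strand) held TAATCC at 106 bases. These matches describe letters and do not show that a factor was bound.
Cngb1: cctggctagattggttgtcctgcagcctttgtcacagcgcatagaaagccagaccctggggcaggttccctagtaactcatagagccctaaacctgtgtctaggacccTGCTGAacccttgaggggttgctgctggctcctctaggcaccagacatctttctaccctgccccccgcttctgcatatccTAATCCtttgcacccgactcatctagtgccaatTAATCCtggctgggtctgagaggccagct
Rbp3: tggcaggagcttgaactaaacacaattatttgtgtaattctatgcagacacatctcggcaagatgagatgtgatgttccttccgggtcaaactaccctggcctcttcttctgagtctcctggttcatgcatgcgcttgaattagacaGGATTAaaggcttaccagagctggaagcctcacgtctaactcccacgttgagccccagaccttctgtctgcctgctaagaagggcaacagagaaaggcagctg
Opn1sw: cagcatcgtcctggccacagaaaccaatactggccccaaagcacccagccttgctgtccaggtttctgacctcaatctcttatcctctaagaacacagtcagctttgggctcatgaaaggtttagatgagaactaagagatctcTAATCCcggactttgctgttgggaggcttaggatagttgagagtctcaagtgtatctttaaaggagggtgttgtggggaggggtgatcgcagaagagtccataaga

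The first comparison asked how much rod RNA each library held. The 10 rod genes summed to 251, 105, 241, 539 and 433 CPM in controls 1, 3, 4, 5 and 6 and to 288, 780.4, 168 and 232 CPM in diabetic 1, 2, 4 and 5. Diabetic 2 was above every control, and the other 3 diabetic libraries lay inside the control range. The highest library exceeded the lowest 7.42-fold, and the controls alone ranged from 105 to 539 CPM. As a share of all counts, the rod genes held 0.0107% in control 3 (exact 95% binomial interval 0.0101% to 0.0113%) and 0.0834% in diabetic 2 (0.0815% to 0.0853%). The control mean was 314 ± 172 CPM (SD, n = 5) and the diabetic mean 367 ± 279.8 CPM (SD, n = 4). The mean log2 difference was 0.17, against an SD of the log2 rod sum of 0.88 over the 9 libraries. This difference was -0.28 without diabetic 2, -0.17 without control 3 and -0.62 without both.

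**Figure D1:**
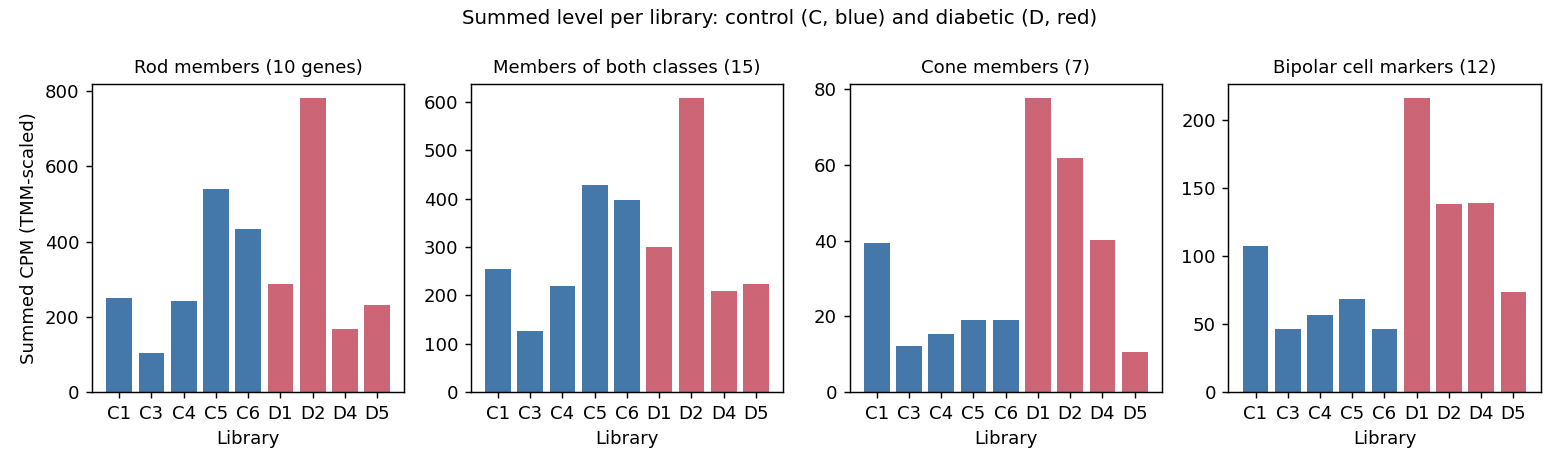
Summed CPM per library (bars, scaled by TMM factors) for the 10 rod genes, 15 shared genes, 7 cone genes and 12 bipolar cell markers, with control libraries in blue and diabetic libraries in red. Rod and shared genes peak in diabetic 2 (780.4 and 607 CPM), while cone genes and bipolar markers peak in diabetic 1 (77.6 and 216 CPM).

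Among the transducin subunits of rods, Gnat1, which encodes the alpha subunit, was the most abundant rod gene by counts. Gnat1 was at 122, 56.1, 114, 276 and 193 CPM in controls 1, 3, 4, 5 and 6 and at 131, 382, 85.8 and 121 CPM in diabetic 1, 2, 4 and 5. Its diabetic values overlapped the controls except in diabetic 2, and its log2 fold change was 0.24 (SE 0.61, edgeR quasi-likelihood adjusted p = 0.850). Gngt1, the gamma subunit, was at 10.8, 5.04, 14.96, 30.1 and 31.0 CPM in the controls and at 22.7, 60.6, 16.9 and 15.7 CPM in the diabetic libraries, in the same order. Like Gnat1, it was lowest in control 3 and highest in diabetic 2, and the log2 fold change was 0.67 (SE 0.67, edgeR adjusted p = 0.572). Their reference transcripts span chromosome 8, 116433302 to 116438038, minus strand (Gnat1), and chromosome 4, 28972434 to 28975419, plus strand (Gngt1), on the build Rnor6.

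The phosphodiesterase of rods is made of catalytic subunits encoded by Pde6a and Pde6b and an inhibitory subunit encoded by Pde6g. Pde6b (Rnor6 chromosome 14, 2328750 to 2371883, minus strand) was at 27.8, 12.1, 24.7, 60.3 and 56.1 CPM in controls and at 30.2, 79.8, 14.7 and 21.0 CPM in diabetic libraries. The group means of 36.2 ± 21.0 CPM (SD, n = 5) and 36.4 ± 29.6 CPM (SD, n = 4) differed by far less than either SD, and the log2 fold change was 0.02 (SE 0.66, edgeR adjusted p = 0.991). Pde6g (chromosome 10, 109621024 to 109622745, minus strand) was at 7.75, 2.60, 7.75, 22.1 and 18.1 CPM in controls and at 14.4, 28.5, 11.002 and 10.5 CPM in diabetic libraries. Control 3 was again the lowest and diabetic 2 the highest, and the log2 fold change was 0.48 (SE 0.61, edgeR adjusted p = 0.670). Pde6a ran from 2.39 CPM in diabetic 4 to 13.1 CPM in diabetic 2.

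Sag encodes rod arrestin, which ends the light response, and was the second most abundant rod gene by counts. Sag (Rnor6 chromosome 9, 94928489 to 94969040, plus strand) was at 61.1, 20.1, 58.0, 109 and 96.8 CPM in controls and at 66.9, 168, 27.6 and 40.9 CPM in diabetic libraries. Again only diabetic 2 was outside the control range, and the log2 fold change was 0.14 (SE 0.67, edgeR adjusted p = 0.923). Of the rod channel subunits, Cngb1 (chromosome 19, 10142496 to 10159487, plus strand) was at 6.52, 2.00, 6.03, 13.6 and 11.6 CPM in controls and at 8.996, 15.7, 5.74 and 11.2 CPM in diabetic libraries. Diabetic 2 alone exceeded the controls, and the log2 fold change was 0.41 (SE 0.50, edgeR adjusted p = 0.657). Cnga1, the other subunit, ran from 2.71 CPM in diabetic 4 to 19.8 CPM in diabetic 2.

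Transcription factors that set photoreceptor identity were present at low counts. Nrl, which commits precursors to the rod fate, was at 0.945, 0.521, 1.51, 3.53 and 1.29 CPM in controls and at 1.98, 5.82, 0.797 and 0.801 CPM in diabetic libraries, on 5 to 57 counts. Nr2e3, which acts with Nrl to repress cone genes in rods, was at 3.40, 0.955, 1.83, 3.43 and 2.32 CPM in controls and at 2.37, 7.77, 0.478 and 1.10 CPM in diabetic libraries, on 3 to 76 counts. Crx, which acts in rods, cones and some bipolar cells, was at 3.40, 0.955, 2.91, 5.03 and 4.52 CPM in controls and at 4.65, 8.48, 2.55 and 1.401 CPM in diabetic libraries. All 3 factors were highest in diabetic 2, with the remaining diabetic libraries inside or below the control range. Their log2 fold changes were 0.62 (Nrl), 0.32 (Nr2e3) and 0.36 (Crx), with edgeR adjusted p-values of 0.622, 0.812 and 0.728.

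Most genes shared by rods and cones followed the same libraries as rod genes. Pdc, or phosducin, which binds transducin beta-gamma subunits, was at 38.4, 17.4, 32.6, 70.2 and 72.4 CPM in controls and at 42.5, 115, 28.4 and 28.6 CPM in diabetic libraries. Rom1, a structural protein of outer segment discs, was at 32.2, 12.4, 28.6, 59.1 and 58.7 CPM in controls and at 37.4, 89.2, 26.6 and 30.9 CPM in diabetic libraries. For both, diabetic 2 was the only diabetic library above the controls. Guca1b, a calcium sensor that regulates guanylate cyclase, was at 21.4, 11.5, 17.4, 44.7 and 34.7 CPM in controls and at 17.7, 65.6, 13.6 and 17.2 CPM in diabetic libraries. Aipl1, a chaperone of phosphodiesterase 6, was at 17.8, 7.21, 13.99, 28.3 and 24.5 CPM in controls and at 23.1, 43.2, 10.5 and 12.9 CPM in diabetic libraries. The log2 fold changes of these genes were 0.23 (Pdc), 0.28 (Rom1), 0.15 (Guca1b) and 0.30 (Aipl1), with edgeR adjusted p-values from 0.765 to 0.910. Reference transcripts on Rnor6 span chromosome 13, 67545430 to 67558600, plus strand, for Pdc, chromosome 1, 225126734 to 225128740, minus strand, for Rom1, and chromosome 10, 58599856 to 58608907, minus strand, for Aipl1.

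Unc119, a carrier of lipidated proteins first found in photoreceptors and also present in many other cell types, was the exception among shared genes. Unc119 was at 84.9, 58.9, 66.5, 95.2 and 92.5 CPM in controls and at 109, 129.9, 90.6 and 78.7 CPM in diabetic libraries. Its highest library exceeded its lowest 2.21-fold, against 5.47-fold to 16.2-fold for the rod genes. Its log2 fold change was 0.36 (SE 0.19, edgeR adjusted p = 0.288), with 2 of 4 diabetic libraries above all controls.

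Of the remaining shared genes, the visual cycle carrier Rbp3 averaged 16.7 CPM, the calcium sensors Rcvrn and Guca1a 18.5 and 14.5 CPM, and the ciliary axoneme gene Rp1 16.0 CPM over the 9 libraries. Abca4, a transporter of retinoids in outer segment discs, averaged 3.87 CPM, and the interphotoreceptor matrix genes Impg2 and Impg1 averaged 2.65 and 1.98 CPM. Gucy2f, a guanylate cyclase, and Samd7, a repressor in photoreceptors, averaged under 1 CPM and were not tested. Each was lowest in control 3 or diabetic 4. The highest library was diabetic 2 for Rbp3, Rcvrn, Guca1a, Impg1 and Impg2, control 5 for Rp1 and Abca4, control 6 for Samd7 and diabetic 4 for Gucy2f. The 2 lowest values of Rp1 were 2.78 CPM (control 3) and 3.51 CPM (diabetic 4). Samd7 had no count in control 3, which allows up to 0.265 CPM (a limit of 3 counts), and Impg2 and Samd7 had none in diabetic 4, which allows up to 0.482 CPM.

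**Figure D2:**
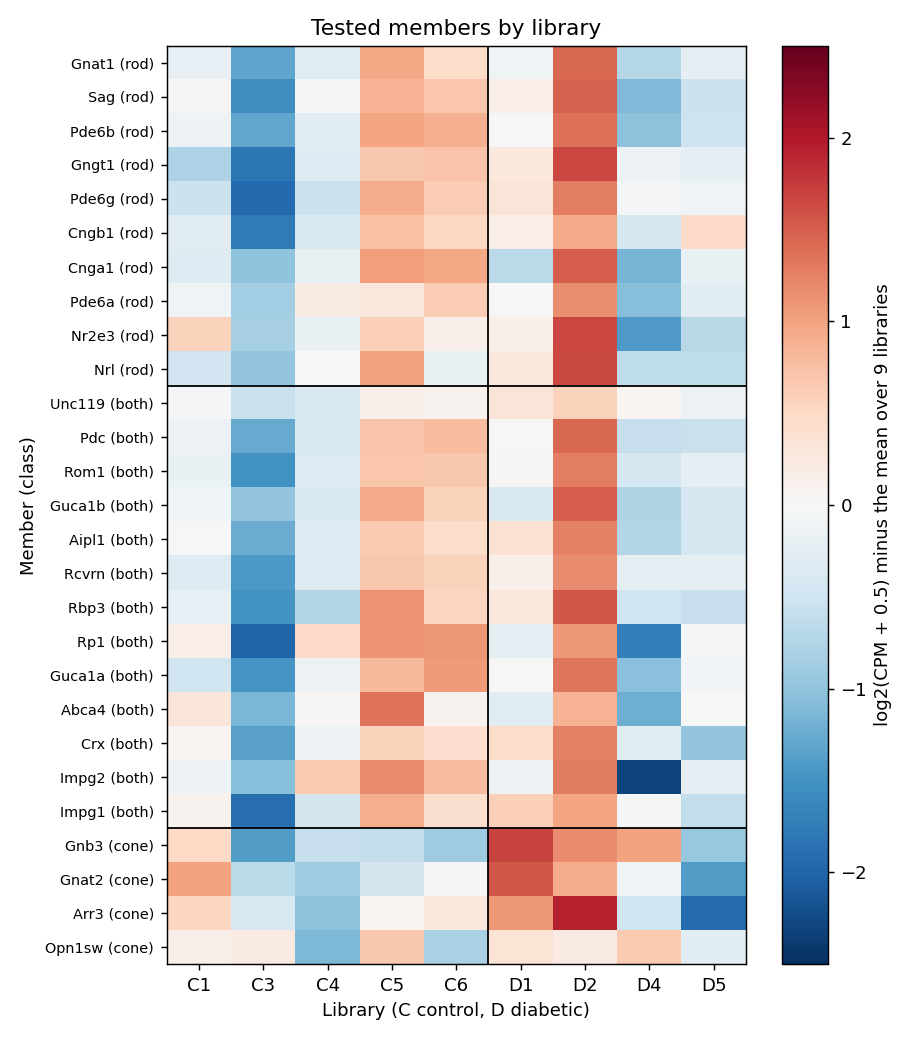
Each row is 1 of the 27 tested genes and each column a library; the colour is log2(CPM + 0.5) minus that gene's mean over the 9 libraries. Rod and shared rows are lowest in control 3 or diabetic 4 and mostly highest in diabetic 2, while the 4 cone rows follow another order.

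The joint movement of rod and shared genes was measured as the SD of log2 CPM over the 9 libraries, for the 19 genes with a mean count of at least 50. Taken alone, the 8 rod genes of this set had an SD of 0.73 to 1.01 on the log2 scale. Taken as a ratio to the sum of the other rod genes, their SD was 0.17 to 0.41, and it was smaller than the SD alone for 8 of 8. For shared genes it was smaller for 8 of 9, with Unc119 the exception (0.34 alone and 0.64 as a ratio). The sum of the 14 shared genes without Unc119 had an SD of 0.85 alone and of 0.08 as a ratio to the rod sum. Of the 10 rod genes, 10 were highest in diabetic 2, and the lowest library was control 3 for 7 and diabetic 4 for 3. Over the 17822 genes with any count, these numbers were 2139, 2696 and 1966. All rod genes come from the same 9 libraries, so these values describe those libraries and are given without a test.

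**Figure D3:**
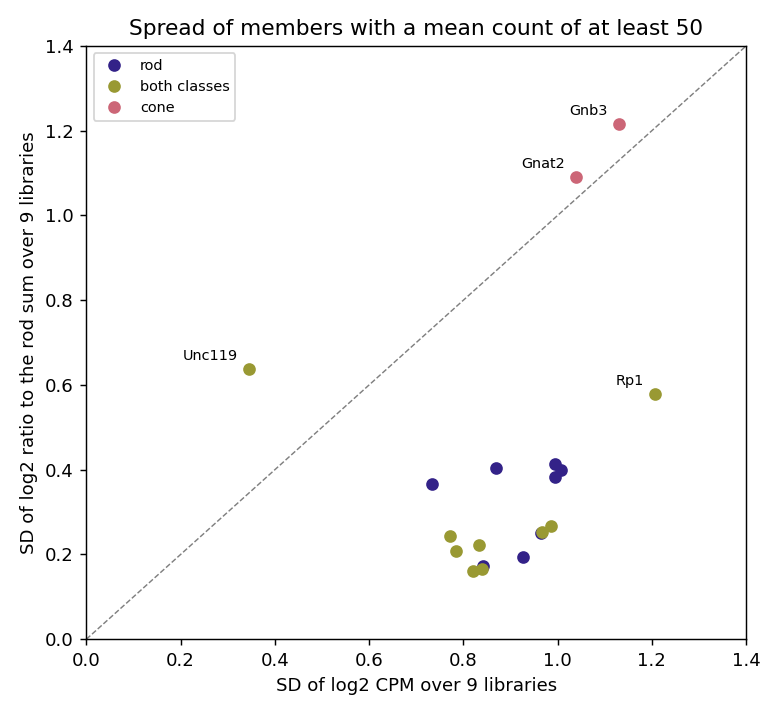
Each point is a gene with a mean count of at least 50; the x axis is the SD of its log2 CPM over the 9 libraries and the y axis the SD of its log2 ratio to the sum of the rod genes other than itself. Rod and shared genes lie below the dashed line of equality, while Unc119, Gnat2 and Gnb3 lie above it.

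Within the rod counts, the share of the 3 most abundant genes varied less than the sum did. Gnat1 made up 44.6% to 53.3% of the rod counts, Sag 16.4% to 24.4% and Pde6b 8.73% to 12.98%. The share of Gngt1 was lowest in control 1 (4.30%) and highest in diabetic 4 (10.1%), and that of Pde6g lowest in control 3 (2.48%) and highest in diabetic 4 (6.55%). Diabetic 4, the library with the fewest counts, also had the lowest shares of Sag, Pde6b and Nr2e3.

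Cone genes were then compared with rod genes. The 7 cone genes summed to 39.5, 12.2, 15.3, 19.2 and 19.1 CPM in controls 1, 3, 4, 5 and 6 and to 77.6, 61.9, 40.2 and 10.6 CPM in diabetic 1, 2, 4 and 5. By CPM, diabetic 1, 2 and 4 lay above all controls and diabetic 5 lay below all controls. Diabetic 4 was not clear of control 1, and which of them was higher depended on the scaling. As a share of all counts, the cone genes held 0.004046% in diabetic 4 (exact binomial interval 0.00356% to 0.00458%). In control 1 they held 0.004063% (0.00368% to 0.00447%). The means were 21.0 ± 10.7 CPM (SD, n = 5) and 47.6 ± 29.0 CPM (SD, n = 4), a mean log2 difference of 0.97. This value was carried mainly by Gnb3, the beta subunit of cone transducin, which ON bipolar cells also use: without Gnb3 the difference was 0.37. With all 7 genes it was 0.73 without diabetic 2, 0.80 without control 3 and 0.57 without both. As a ratio to the rod sum the SD of the log2 cone sum was 1.08, against 1.04 alone, so the sum of all 7 did not follow the rod sum. As a ratio to the sum of the bipolar cell markers it was 0.49. Without Gnb3 the SD was 1.08 alone, 1.01 as a ratio to the rod sum and 0.82 as a ratio to the bipolar sum.

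Cone counts made up 13.6%, 10.4%, 5.95%, 3.43% and 4.23% of rod plus cone counts in controls 1, 3, 4, 5 and 6. In diabetic 1, 2, 4 and 5 they made up 21.2%, 7.35%, 19.3% and 4.37%. The exact 95% binomial interval was 19.9% to 22.6% in diabetic 1 and 2.96% to 3.97% in control 5, so these libraries differed by more than counting error. Group means were 7.52% ± 4.34 (SD, n = 5) and 13.1% ± 8.45 (SD, n = 4), and the ranges overlapped. The difference of 5.54 percentage points was 7.45 without diabetic 2, 6.26 without control 3 and 8.16 without both. Without Gnb3 the share ran from 1.68% to 6.59% in control and from 1.23% to 8.63% in diabetic libraries, with means of 3.77% and 4.56%. Of the 4 highest shares, those of diabetic 1, diabetic 4 and control 1 stood over the cone sums of 77.6, 40.2 and 39.5 CPM given above. That of control 3 stood over a low cone sum (12.2 CPM) and the lowest rod sum (105 CPM). Diabetic 4 had the next lowest rod sum (168 CPM).

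**Figure D4:**
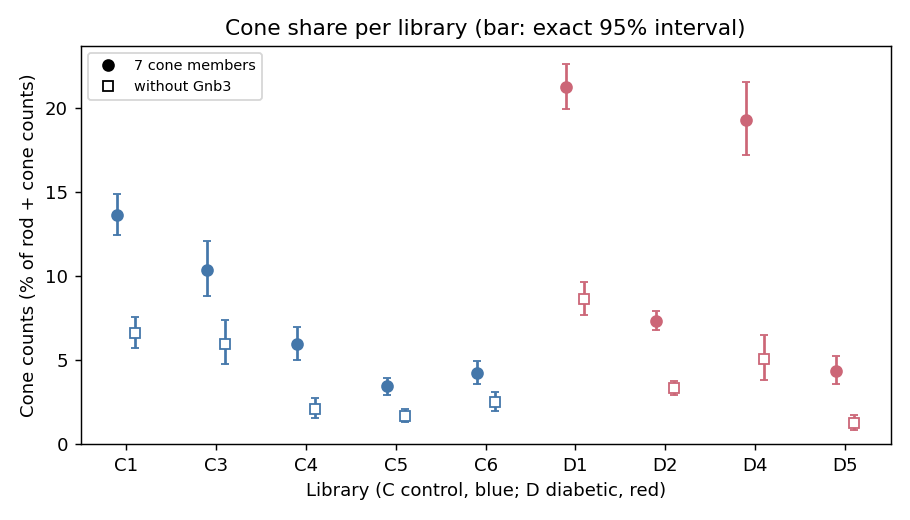
Cone counts as a percentage of rod plus cone counts in each library, for 7 cone genes (filled circles) and without Gnb3 (open squares); bars are exact 95% binomial intervals, controls are blue and diabetic libraries red. The libraries span 3.43% to 21.2% with Gnb3 and 1.23% to 8.63% without it, and the groups overlap in both.

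Among single cone genes, Gnb3 (Rnor6 chromosome 4, 157352372 to 157358007, minus strand) had the most counts. Gnb3 was at 21.8, 5.47, 10.1, 9.96 and 8.00 CPM in controls and at 50.4, 35.0, 31.3 and 7.71 CPM in diabetic libraries. Diabetic 1, 2 and 4 lay above all controls, diabetic 5 lay among them, and control 1 was the highest control. Its log2 fold change was 1.49 (SE 0.67), with an edgeR quasi-likelihood p of 0.0272 before and 0.210 after adjustment over all genes. Over its alternatives the adjusted p of Gnb3 ran from 0.0956 to 0.533. In the authors' deposited table its log2 fold change is 1.59, with 0.0195 as the adjusted p. Without normalization factors the edgeR quasi-likelihood fit here also gave 1.59, with an adjusted p of 0.222. Leaving out the factors thus matched the deposited log2 fold change but not the deposited adjusted p. The deposited adjusted p is not like for like with the 0.210 above, and what sets them apart was not tested. The bipolar cell markers moved with it: their 12 genes, all detected, summed to 107, 46.5, 56.7, 68.9 and 46.6 CPM in controls and to 216, 138, 139 and 73.9 CPM in diabetic libraries. As a ratio to the bipolar sum, the SD of log2 Gnb3 was 0.43, against 1.13 alone and 1.22 as a ratio to the rod sum. The part of bipolar RNA in the Gnb3 difference was not tested.

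Gnat2, the alpha subunit of cone transducin, was at 10.6, 2.95, 2.47, 3.53 and 5.16 CPM in controls and at 15.7, 10.0, 4.62 and 1.60 CPM in diabetic libraries. Arr3, or cone arrestin (Rnor6 chromosome X, 70445516 to 70446687, plus strand), was at 4.44, 2.08, 1.18, 3.11 and 3.61 CPM in controls and at 6.72, 12.5, 1.91 and 0.400 CPM in diabetic libraries. Both overlapped between the groups, high in diabetic 1 and 2 and lowest in diabetic 5, with log2 fold changes of 0.70 (SE 0.67) and 0.91 (SE 0.80) and edgeR adjusted p-values of 0.558 and 0.517. Opn1sw, the short-wavelength opsin, rested on 1 to 15 counts and was at 0.945, 1.04, 0.108, 1.61 and 0.258 CPM in controls and at 1.19, 1.02, 1.59 and 0.601 CPM in diabetic libraries. The middle-wavelength opsin Opn1mw had 0 to 21 counts, with the most in diabetic 1. The cone phosphodiesterase genes Pde6h and Pde6c had 0 to 14 and 0 to 7 counts, and a count of 0 allowed up to 0.312 CPM in diabetic 5 (Opn1mw and Pde6h) and 0.482 CPM in diabetic 4 (Pde6c). These last 3 genes did not pass the filter on low counts. As a ratio to the bipolar sum the SD of log2 Gnat2 was 0.71, against 1.04 alone and 1.09 as a ratio to the rod sum.

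Levels between genes were compared per transcript length with the TPM values of the authors' transcript assemblies, summed over all transcripts assembled at a locus. Loci on Rnor6 could be placed for 17 of the 32 genes: 7 rod, 2 cone and 8 shared. Median TPM over the 9 libraries was 44.4 for Sag, 37.8 for Pde6g, 32.1 for Gnat1, 21.0 for Gngt1 and 14.4 for Pde6b. Gnb3 had a median of 5.24 TPM and a range of 2.19 to 15.7 TPM, which overlapped those of Pde6b (5.10 to 38.7) and Gngt1 (3.49 to 98.1). Within a library, Gnb3 was below Pde6b in all but diabetic 4 (12.2 against 5.10 TPM). It was below Gngt1 in all but control 1 (7.15 against 3.49 TPM). Arr3 had no assembled transcript in 6 libraries. The ranges of Sag, Pde6g and Gnat1 overlapped, at 12.6 to 75.9, 21.9 to 87.9 and 14.1 to 89.5 TPM. Within a library, Pde6g was above Gnat1 in all but control 6 (62.7 against 89.5 TPM). Sag was above Gnat1 in all but control 3 (12.6 against 14.1 TPM) and control 6 (75.9 against 89.5 TPM). Cngb1 had a median of 3.77 TPM, and Nrl had a TPM above 0 in 1 library, diabetic 2, at 3.87 TPM. Assembled fragments can be partial, so these levels are coarse.

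The central test asked whether any photoreceptor gene differed between the groups. The filter on low counts kept 27 of the 32 genes, and 0 of 27 passed an adjusted p of 0.05 by edgeR (quasi-likelihood), against 0.0681% of the 11748 genes tested and 0.0426% called as higher. At an unadjusted p below 0.05 there was 1 of 27, Gnb3, against 18.9% of all tested genes. DESeq2 and limma-voom also gave 0 calls among them. The groups did not overlap for 0 of 27 genes, against 8.44% of all tested genes. The log2 fold change was above 0 for 23 of 27 genes, against 50.3% of all tested genes, with a median of 0.32 against 0.0017. Without normalization factors both medians were larger, at 0.45 and 0.12. By class the medians were 0.28 for 10 rod genes, 0.28 for 13 shared genes and 0.80 for 4 cone genes. Without diabetic 2, 9 of 27 genes were above 0 and the median was -0.34. The rod and shared medians were then -0.47 and -0.34, while 4 of 4 cone genes stayed above 0 with a median of 0.51. Without control 3, 18 of 27 were above 0 and the median was 0.098, and without both libraries 4 of 27 were above 0 and the median was -0.57. The 4 below 0 were Rp1 (-0.40), Impg2 (-0.34), Abca4 (-0.32) and Cnga1 (-0.02), and Cnga1 turned to 0.08 with upper-quartile factors and 0.13 without factors.

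**Figure D5:**
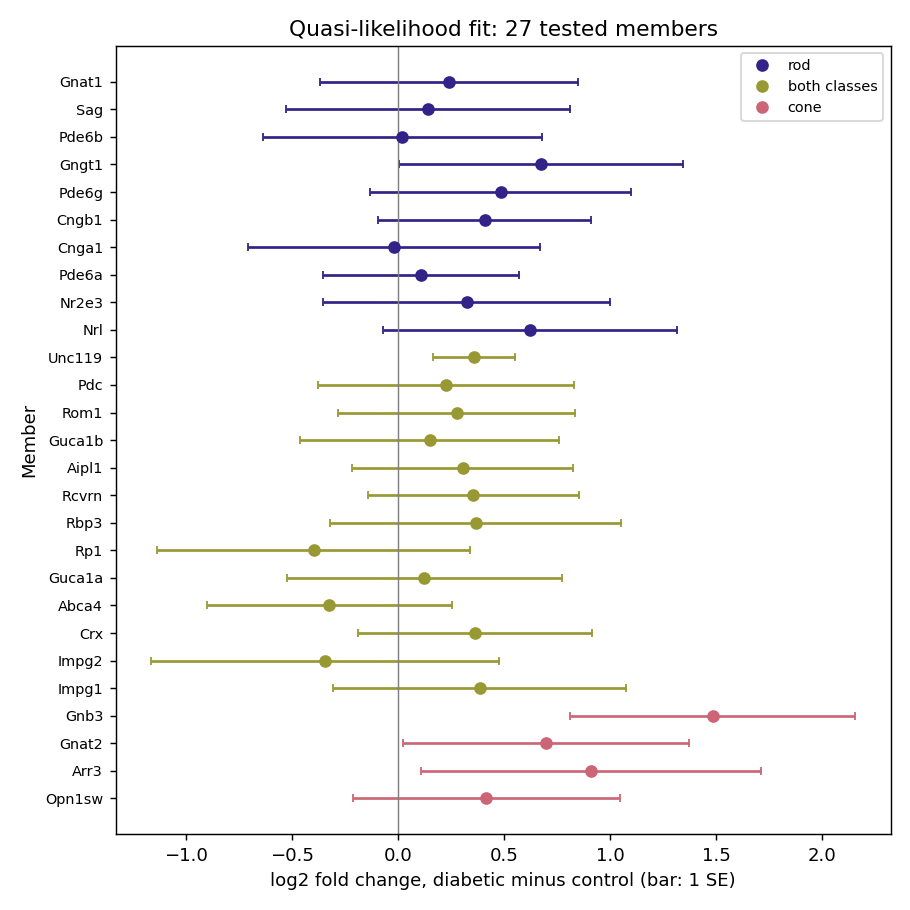
Log2 fold change of diabetic minus control (points) with 1 SE (bars) for the 27 tested genes, coloured by class, from the quasi-likelihood fit over all genes. Most rod and shared bars cross 0, and Gnb3 lies farthest from it at 1.49.

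The authors' deposited table listed 28 of these genes, with 25 at a log2 fold change above 0 and 1, Gnb3, at an adjusted p below 0.05, against 2.1% of the 12069 genes in that table. The median log2 fold change in the authors' deposited table was 0.46 for these genes and 0.12 for all its genes.

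Other photoreceptor genes, from a list of 40 with 39 in the table, gave a like picture. Of 32 tested by edgeR, 0 passed the adjusted threshold, 2 had an unadjusted p below 0.05 (Gnb1 and Cacna2d4), 23 were above 0 and 9 below, and the median log2 fold change was 0.21. Without diabetic 2, 9 of 32 were above 0 and the median was -0.18, without control 3 the median was 0.0027, and without both 3 of 32 were above 0 with a median of -0.35. The most abundant were Gnb1, the beta subunit of rod transducin that most cells also use (115 CPM over the 9 libraries), Slc17a7, a glutamate transporter of photoreceptor and bipolar synapses (47.5 CPM), and Elovl4, a fatty acid elongase (34.2 CPM). Gnb1 varied 1.498-fold between its highest and lowest library, and its log2 fold change was -0.31 (SE 0.12, edgeR adjusted p = 0.149). Slc17a7 and Elovl4 varied 6.08-fold and 3.09-fold, and both were highest in diabetic 2 and lowest in control 3. Of the 39 genes, 21 were highest in diabetic 2 and 18 lowest in control 3, against 2139 and 2696 of the 17822 genes with any count. The cone channel gene Cnga3 was at 0 in all 9 libraries.

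Markers of other cells did not share the full order of the rod genes. The bipolar list and the amacrine, ganglion and horizontal cell list were, like the rod sum, lowest in control 3. The Muller glia list summed to 2479 to 2713 CPM in control and to 2088 to 2366 CPM in diabetic libraries, with all 12 genes detected. Its most abundant gene, Glul, averaged 1154 CPM. The list varied 1.30-fold between its highest and lowest library, against 1.15-fold for the microglial list. Which cells this RNA came from was not tested. The amacrine, ganglion and horizontal cell list, with Pou4f1 at 0, summed to 89.5 to 169 CPM in control and to 100.4 to 287 CPM in diabetic libraries, highest in diabetic 1. The list of immediate-early and stress genes induced by cell isolation, with 19 genes detected, was also lowest in control 3 (4683 CPM). It was highest in control 6 (38191 CPM). It stood at 19212 CPM in diabetic 2, inside its control range. Vascular markers, with 12 genes detected, summed to 216 to 389 CPM in control and to 172 to 251 CPM in diabetic libraries. Blood and border myeloid markers, with Ccr2 and Chi3l3 at 0, summed to 550.02 to 920.2 CPM in control and to 854 to 1573 CPM in diabetic libraries. The part of cell isolation in the rod sums was not tested.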

How the data were processed

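The authors deposited raw counts per gene symbol for 9 libraries. Per the submitters' processing notes, TopHat2 2.0.14 and the build Rnor_6.0 were used; how reads were counted, and whether by strand, no source used here states, so reads of overlapping, antisense or closely related genes can be shared. The authors' deposited table holds log2 fold changes and p-values for 12069 genes. The authors' StringTie 1.2.4 assemblies, per the file headers on the Ensembl annotation of Rnor6, give TPM per assembled transcript, summed here over transcripts whose exons overlap a gene's reference exons.

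Counts were filtered with filterByExpr (minimum count 10, minimum total 15), scaled by TMM, and tested with edgeR 4.0.16 (quasi-likelihood, robust, no covariates) in R 4.3.3, with Benjamini-Hochberg adjustment over 11748 genes and a threshold of 0.05. The SE was derived from the log2 fold change and its p-value on the normal scale. CPM uses TMM-scaled library sizes. Log2 CPM used a prior count of 2 for the SDs. DESeq2 1.42.0 and limma 3.58.1 were alternatives. The fit was tested on simulated data.

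Sums and shares over genes were given without a test. Values in every library are given for the 6 rod, 4 cone and 5 shared genes with the highest mean CPM and for Crx, Nrl and Nr2e3; the rest by mean, range or count. The genes and lists were chosen with earlier results of these data known.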

Additional observations from a re-analysis of the deposited data

Results flagged for a closer look

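In groups of 4 or 5 libraries, the gap of the highest or lowest library to the nearest other was divided by the range of the group. A library was marked when this ratio exceeded Dixon's 95% critical value, which chance does in about 1 of 20 groups. The groups come from the same libraries and include genes that moved together, so the marks are not independent. Of 72 groups tested, 7 were marked, and 4 of these were diabetic 2. In diabetic 2 Gnat1 was at 382 CPM (other diabetic libraries 85.8 to 131), Gngt1 at 60.6 CPM (15.7 to 22.7), Pdc at 115 CPM (28.4 to 42.5) and Guca1b at 65.6 CPM (13.6 to 17.7). In control 1 Gnb3 was at 21.8 CPM (other controls 5.47 to 10.1) and the cone sum at 39.5 CPM (12.2 to 19.2). In control 6 Gucy2f was at 1.42 CPM (other controls 0.0868 to 0.473), on 11 counts.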

How the results depend on the processing

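The count of 0 calls among the tested photoreceptor genes, and among the other photoreceptor genes, was the same under all 17 alternatives; over 453 values of single genes the lowest adjusted p was 0.0956, for Gnb3 without diabetic 5. The count of all genes called was 8 in the edgeR quasi-likelihood test. It was 31 with upper-quartile factors, 29 without factors, 42 without a filter on low counts, 598 by DESeq2 and 4 by limma-voom. With the replicate block, fitted only on libraries whose number both groups share, it was 0. It was 4 without diabetic 2 and control 3, an alternative chosen after seeing the data. It was 0 to 75 when 1 library was left out, with 0 without control 4, diabetic 1 or diabetic 4. The share of calls that were higher was 62.5%, against 87.1% with upper-quartile factors and 96.6% without factors, where the median over all genes was 0.08 and 0.12.

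Log2 differences of the summed levels when 1 library was left out were -0.28 to 0.46 for rod, 0.62 to 1.58 for cone and -0.12 to 0.40 for shared genes, and the cone share differed by 2.82 to 8.44 percentage points, against 5.54; the cone difference was 1.58 without diabetic 5 and 0.62 without diabetic 1. TPM of reference transcripts alone could not be compared, since each library listed them for few of the genes; TPM summed at loci, chosen after seeing the data, gave 0.13, 1.22 and 0.08.

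Libraries 1, 4 and 5 of both groups share a number. Their deviations correlated at 0.20, -0.11 and 0.02 over genes, so the numbers were not taken as pairs. The replicate block was fitted on libraries 1, 4 and 5 of both groups only. It therefore also left out diabetic 2, control 3 and control 6, and its sign changes cannot be credited to the block itself. With the replicate block the log2 fold change changed sign for Gnat1 (-0.50), Pde6a (-0.59), Pde6b (-0.72), Sag (-0.78), Nrl (-0.65), Nr2e3 (-1.23), Arr3 (-0.30), Rcvrn (-0.11), Pdc (-0.45), Rom1 (-0.28), Rbp3 (-0.35), Guca1a (-0.43), Guca1b (-0.68), Aipl1 (-0.38), Crx (-0.48) and Impg1 (-0.25), and the rod sum differed by -0.51. Without diabetic 2 and control 3 it changed sign for Gnat1 (-0.65), Gngt1 (-0.23), Pde6a (-0.69), Pde6b (-0.93), Pde6g (-0.21), Cngb1 (-0.11), Sag (-0.84), Nrl (-0.58), Nr2e3 (-1.01), Arr3 (-0.018), Rcvrn (-0.32), Pdc (-0.68), Rom1 (-0.49), Rbp3 (-0.57), Guca1a (-0.74), Guca1b (-0.86), Aipl1 (-0.43), Crx (-0.46) and Impg1 (-0.30). It also did for Cnga1 (0.077 with upper-quartile factors, 0.13 without factors) and Nr2e3 (-0.084 by limma-voom). When 1 library was left out the range held both signs for Gnat1 (-0.44 to 0.57), Pde6a (-0.51 to 0.36), Pde6b (-0.71 to 0.29), Cnga1 (-0.97 to 0.27), Sag (-0.60 to 0.41), Nrl (-0.35 to 1.18), Nr2e3 (-0.80 to 0.65), Rcvrn (-0.10 to 0.59), Pdc (-0.47 to 0.45), Rom1 (-0.27 to 0.49), Rbp3 (-0.34 to 0.80), Guca1a (-0.51 to 0.45), Guca1b (-0.67 to 0.44), Abca4 (-0.84 to 0.17), Aipl1 (-0.23 to 0.53), Crx (-0.21 to 0.66) and Impg2 (-1.30 to 0.028). The cause was not tested. Depth limits the genes at under 1 CPM, which rest on few counts.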

Other observations

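The retinal pigment epithelium, which contacts rod outer segments, was followed through 12 genes. Lrat, Tyr and Mlana were at 0 in all 9 libraries. Best1, an ion channel gene listed as a marker of this epithelium, averaged 1622 CPM, while the other 11 genes together summed to only 4.30 to 11.4 CPM. Which cells the Best1 RNA came from was not tested. The order of libraries by that sum (highest in diabetic 1 and lowest in diabetic 5) was not the order by the rod sum.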
